A study of Mus musculus with 25 samples.

Results

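The genes described here are 38 interferon-stimulated genes of the mouse, measured in whole lung after bleomycin. They were taken from a fixed list of symbols, chosen with earlier results of these data known. Counts of members beside shares of all genes are therefore descriptions and no independent test. Each gene was read from the probe set annotated to its symbol alone, with the highest-mean probe set where a gene had several. Of the 38 genes, 36 had such a probe set (Isg15 and Ifi44 had none), and 35 passed the filter on low values and were tested among 12062 genes. Mx2, a dynamin-like antiviral GTPase, was the member below the filter. The 35 tested members divide into 30 that are known mainly as type I interferon targets and 5 that are known as targets of gamma interferon, namely Cxcl9, Gbp2, Igtp, Iigp1 and Irf1. The series measured total lung RNA of 25 female mice on Affymetrix expression arrays, 1 array per mouse. Wild-type mice (WT) numbered 4 at Day 0, 4 at Day 7 and 5 at Day 14. Mice lacking FP, the prostaglandin F receptor encoded by Ptgfr (FP-KO), numbered 4 at each of these times. The labels state that bleomycin, a DNA-damaging drug used to produce lung injury and fibrosis in mice, was instilled into the trachea at the start, at a dose of 1 mg/kg and in a volume of 40 ul of saline. They describe the Day 0 arrays as baseline, and whether those mice had received the drug is unstated. The labels name no cell type to which the loss of Ptgfr is restricted, no saline group was analysed here, and the labels state neither strain nor age.

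Type I interferons, the alpha and beta forms, signal through the receptor pair Ifnar1 and Ifnar2 to the kinases Jak1 and Tyk2, and a complex that includes the transcription factors Stat2 and Irf9 then binds an interferon-stimulated response element (ISRE) in target promoters. Gamma interferon, made mainly by T cells and natural killer cells, signals through Ifngr1 and Ifngr2 and acts on target promoters at a gamma-activated site (GAS). Many targets respond to both kinds of interferon, and Gbp3, Irgm1, Tap1 and Cxcl10 among the type I members are known to do so. The products cut or bind viral RNA, tag proteins with ubiquitin-like Isg15, attack the vacuoles of intracellular microbes, or attract lymphocytes.

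Promoter stretches of 7 members are shown because they place the 2 response elements in genes whose levels are given below. They come from RefSeq on GRCm38.p6, in windows from 250 bases before to 50 bases after the start of a gene. Each is written 5′ to 3′ on the strand of its gene, all bases shown lie upstream of the start, and capitals mark every match to the ISRE core or the GAS core. The ISRE core searched was GAAA, any 2 bases and GAAA again, on either strand, so that a match on the other strand reads TTTC, 2 bases and TTTC. The GAS core searched was TTCNNNGAA, which reads the same on both strands. In Irgm1 the capitals hold 2 ISRE matches that overlap, and in Igtp a GAS match precedes an ISRE match.
Cxcl10, chr5:92349068-92349127, minus strand, ISRE: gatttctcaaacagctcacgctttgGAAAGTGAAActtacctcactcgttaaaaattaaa
Ifit1, chr19:34640770-34640828, plus strand, ISRE: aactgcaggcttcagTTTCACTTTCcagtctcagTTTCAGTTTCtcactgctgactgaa
Oas3, chr5:120777700-120777759, minus strand, ISRE: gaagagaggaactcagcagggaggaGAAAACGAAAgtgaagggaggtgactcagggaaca
Irgm1, chr11:48871421-48871472, minus strand, ISRE: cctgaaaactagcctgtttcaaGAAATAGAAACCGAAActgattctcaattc
Igtp, chr11:58199492-58199550, plus strand, GAS and ISRE: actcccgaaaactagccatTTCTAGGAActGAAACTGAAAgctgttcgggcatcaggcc
Gbp2, chr3:142620579-142620638, plus strand, ISRE: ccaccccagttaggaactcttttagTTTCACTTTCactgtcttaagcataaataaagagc
Irf1, chr11:53769899-53769957, plus strand, GAS: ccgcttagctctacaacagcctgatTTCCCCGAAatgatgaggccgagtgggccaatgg

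Of the 38 members, 28 had a promoter window in the table, and 15 of these (53.6%) held at least 1 ISRE core, beside 1079 of the 27025 genes with a window (3.99%). Among the type I members, 13 of 24 held the ISRE core (54.2%). Among the gamma-interferon members, 2 of 4 held it, Gbp2 and Igtp. The GAS core was in 6 of 28 member genes (21.4%), beside 9.55% of all genes, and the 6 were Bst2, Eif2ak2, Ifi35, Ifit2, Igtp and Irf1. Irf1 held a GAS match and no ISRE match in its window. Bst2 and Igtp held both elements within their windows, and Eif2ak2 held both with its ISRE match after the start. A match is a description of letters in a window and says nothing of whether a factor is bound there.

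All levels are log2 intensities after a floor at an intensity of 24.3 and quantile normalization, 1 unit being a factor of 2, and levels of different genes are not comparable on an array. A member was called changed at an adjusted p under 0.05 from limma over all 12062 genes. These p-values weigh a difference of group means against the spread between the mice of this series, pooled over all 6 groups. The number of arrays limits the precision, and the deposited intensities had medians of 112.3 to 151.5. In the FP-KO arrays Ptgfr stood between 4.60 and 5.88, and in the WT arrays between 6.99 and 8.50. The lung markers Sftpc (14.89 to 15.13) and Scgb1a1 (15.22 to 15.29) were high in all 25 arrays. On the first principal component of the genes outside all lists used here, FP-KO Day 14 No. 2 stood at -28.6 among the Day 0 mice (-34.2 to -24.5), and its 18S ribosomal RNA probe set had the highest intensity of all arrays, 2393.3 against a median of 136.4. The next highest were FP-KO Day 0 No. 1 (1230.2) and WT Day 0 No. 1 (674.5). On the second component the Day 14 arrays fell into set A, WT No. 1 to No. 3 and FP-KO No. 1 and No. 2 (27.4 to 29.7), and set B, WT No. 4 and No. 5 and FP-KO No. 3 and No. 4 (-2.49 to 1.12). Day 14 results are therefore given also within each set. In whole lung, fewer cells of a type and less RNA per cell cannot be told apart.

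On Day 7, most type I members were higher than on Day 0 in both genotypes, with the chemokine Cxcl10 and the sensor Zbp1 in front in both. In WT, 24 of 35 members rose and 0 fell, where 17.1% of all genes rose and 18% fell. On Day 14 in WT, 21 members were still above Day 0, all of them among the 24 of Day 7, and 2 were below it, where 19.1% of all genes rose and 19.5% fell. In FP-KO, 19 members rose by Day 7 and 1 fell (12.6% and 10.7% of all genes), and by Day 14 0 were above Day 0 and 1 below it (1.85% and 1.41% of all genes). Between Day 7 and Day 14, 18 members fell and 1 rose in FP-KO (12% and 10.7% of all genes), while in WT 1 fell and 0 rose (2.37% and 3.56% of all genes). With the set B arrays alone at Day 14, 13 members were above Day 0 in WT and 8 fell from Day 7 in FP-KO, and with set A alone these counts were 21 and 21.

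**Figure D1:**
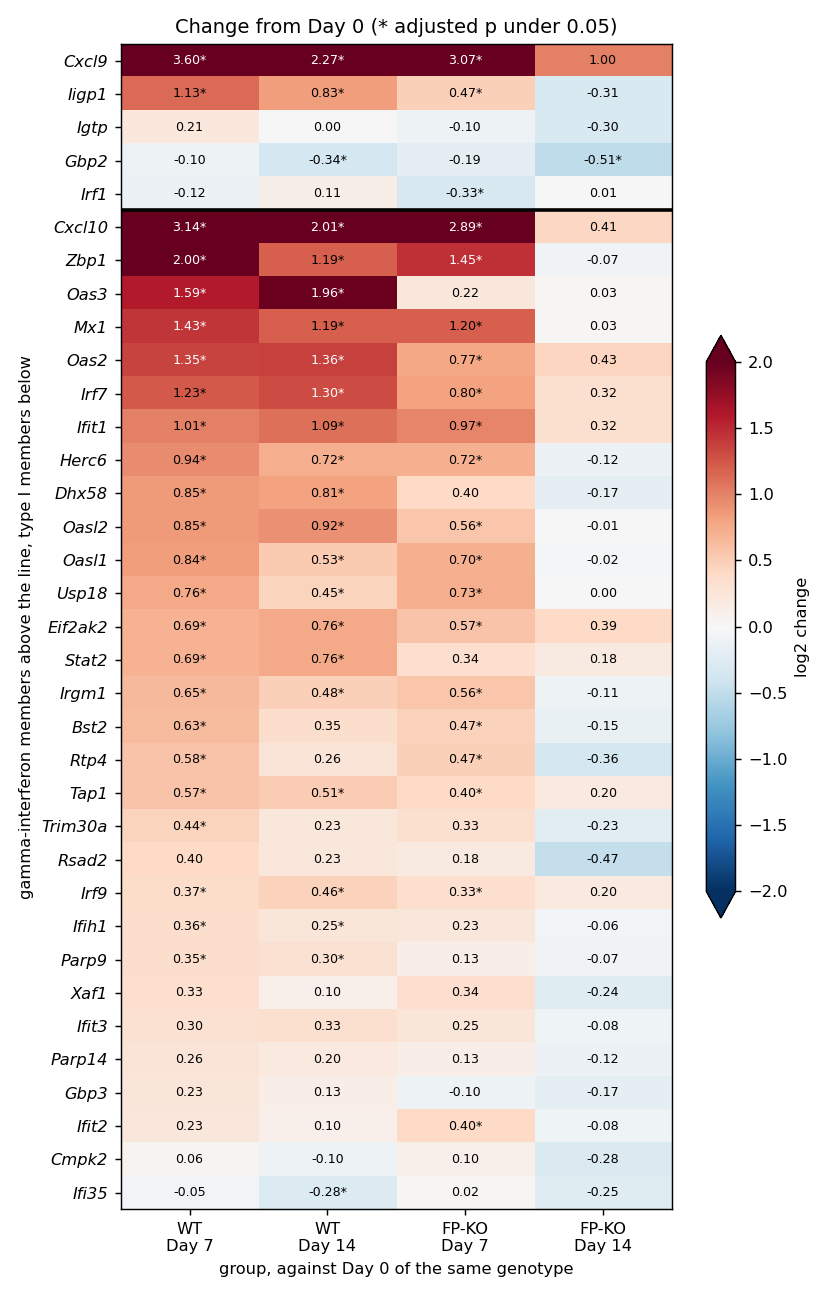
Log2 change of each of the 35 tested members from Day 0 of the same genotype, as numbers and colours, with gamma-interferon members above the line and type I members below it. Asterisks mark an adjusted p under 0.05; the colour scale ends at 2 in either direction, and the FP-KO Day 14 column holds 1 asterisk, at Gbp2.

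The medians of the members followed the same course. Over the 30 type I members the median change from Day 0 in WT was 0.64 on Day 7 and 0.47 on Day 14, beside -0.01 on both days over all genes. In FP-KO the type I median was 0.40 on Day 7 and -0.07 on Day 14, beside 0.00 and 0.01 over all genes. Every Day 7 mouse stood above every Day 0 mouse for 23 of 35 members in WT (17.2% of all genes) and 19 of 35 in FP-KO (13.8% of all genes), and every Day 7 mouse below for 0 in either genotype (17.8% and 12.7%). On Day 14 against Day 0 this held upward for 19 members in WT (14.8% of all genes) and downward for 0 (13.7%), and in FP-KO upward for 1, Eif2ak2 (4.9%), and downward for 2, Gbp2 and Xaf1 (4.97%). From Day 7 to Day 14, 21 members lay lower without overlap in FP-KO (9.92% of all genes) and 0 higher (9.69%), and in WT 3 lay lower, Cxcl9, Cxcl10 and Zbp1 (5.34%), and 0 higher (6%). Scaling each array to a common median without the quantile step gave 22 and 21 rising members on Day 7 in WT and FP-KO; over all genes it moved the FP-KO Day 7 calls from 1523 up and 1291 down to 1465 and 599. Without FP-KO Day 0 No. 1, the number of members that rose by Day 7 in FP-KO was 11; this array, the second in 18S signal, was the lowest of its group for 17 of 35 members.

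Some interferon genes stood near the floor and others above it. Ifng, the gene of gamma interferon, lay between 4.60 and 5.45 in all 25 arrays, and Ifnb1, the gene of interferon beta, between 4.60 and 6.05, where 4.60 is the floor. Neither passed the filter, so neither was tested. Ifnz, a type I interferon of mice, was also below the filter, at 5.39 to 7.13. Of the 23 listed ligands and inducers of interferon, 14 had a probe set of their own and 4 were tested. Of these 4, 2 fell and 0 rose in WT on Day 7, where 18% of all genes fell and 17.1% rose. Ifna2, an alpha interferon with close paralogs that may share its probes, fell by 1.66 (SE 0.50, limma adjusted p = 0.0127), with WT levels of 7.36, 7.14, 6.76 and 7.09 on Day 0 and 4.60, 4.60, 5.66 and 6.83 on Day 7. The Day 7 mice thus ran from the floor to a level inside the Day 0 range. Il15, a cytokine that sustains natural killer cells, fell by 0.40 (SE 0.15, limma adjusted p = 0.0466).

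Among receptors, 1 of 6 rose in WT on Day 7 and 0 fell. Over all genes 17.1% rose and 18% fell, so the number of receptors that rose was near the share over all genes. Ifngr2, the signalling chain of the gamma-interferon receptor, rose by 0.71 (SE 0.20) on Day 7 and 1.08 (SE 0.19) on Day 14 in WT, and its changes in FP-KO, 0.48 and 0.56, did not pass. Of the 9 tested JAK-STAT and interferon regulatory factors outside the members, Irf5, a factor downstream of Toll-like receptors, rose by 0.87 (SE 0.14), and Irf2, a repressor of Irf1 targets, fell by 0.41 (SE 0.15). Of the 5 tested inhibitors of signalling, Socs3, a feedback inhibitor of cytokine receptors, rose by 2.07 (SE 0.27) in WT on Day 7, and Pias1, an inhibitor of JAK-STAT signalling, fell by 0.41 (SE 0.08).

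The transcription factors among the members did not move together. Irf7, the factor that amplifies type I interferon production, had WT levels of 8.63, 8.62, 8.43 and 8.54 on Day 0, 9.54, 9.73, 9.50 and 10.38 on Day 7, and 10.14, 10.22, 10.18, 9.34 and 9.38 on Day 14. In FP-KO, Irf7 stood at 9.04, 9.15, 8.68 and 9.07 on Day 0, 9.71, 9.85, 9.70 and 9.91 on Day 7, and 9.68, 9.07, 9.18 and 9.29 on Day 14. Every Day 7 mouse was above every Day 0 mouse in both genotypes, and on Day 14 the 3 WT mice of set A stood above the 2 of set B. Irf7 rose by 1.23 (SE 0.20) by Day 7 in WT and by 0.80 (SE 0.20) in FP-KO, and by 1.30 (SE 0.19) by Day 14 in WT, while its FP-KO Day 14 change of 0.32 (SE 0.20) did not pass. Irf9, the DNA-binding partner of Stat2, rose by 0.37 and 0.46 in WT on Day 7 and Day 14 and by 0.33 in FP-KO on Day 7. That FP-KO call was kept with only 2 of the 8 mice left out in turn. It was also lost with no filter on low genes and with the deposited values not quantile normalized. Stat2 rose by 0.69 and 0.76 in WT, and its FP-KO change on Day 7, 0.34 (SE 0.20), did not pass.

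Irf1, the factor that carries much of the gamma-interferon response and whose promoter stretch above holds the GAS match, was called in FP-KO alone. Its WT levels were 10.83, 10.77, 10.94 and 10.96 on Day 0, 10.71, 10.61, 10.74 and 10.97 on Day 7, and 11.02, 11.04, 10.99, 11.09 and 10.80 on Day 14. Its FP-KO levels were 10.97, 11.19, 10.86 and 11.12 on Day 0, 10.57, 10.46, 10.83 and 10.98 on Day 7, and 11.12, 11.17, 10.84 and 11.07 on Day 14. The groups overlapped on every day in both genotypes. In WT its changes of -0.12 and 0.11 did not pass, and in FP-KO it fell by 0.33 (SE 0.11, limma adjusted p = 0.0364) by Day 7 and rose by 0.34 (SE 0.11, limma adjusted p = 0.0315) from Day 7 to Day 14. Both FP-KO calls were lost with common-median scaling (adjusted p = 0.141 and 0.108) and without any of several mice, among them FP-KO Day 7 No. 1 and No. 2.

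The ISGylation genes with a value were Herc6, the ligase that attaches Isg15 to proteins in mice, and Usp18, the protease that removes it and dampens the type I receptor. Herc6 had WT levels of 8.28, 8.10, 8.07 and 8.20 on Day 0, 9.02, 9.09, 8.91 and 9.39 on Day 7, and 8.94, 8.79, 9.04, 8.88 and 8.77 on Day 14. In FP-KO it stood at 8.45, 8.73, 8.74 and 8.70 on Day 0, 9.49, 9.42, 9.30 and 9.26 on Day 7, and 8.64, 8.24, 8.62 and 8.62 on Day 14. Every FP-KO mouse was above every WT mouse on Day 0, and every FP-KO mouse was below every WT mouse on Day 14. Herc6 rose by 0.94 (SE 0.11) by Day 7 in WT and by 0.72 (SE 0.11) in FP-KO, and from Day 7 to Day 14 it fell by 0.84 (SE 0.11) in FP-KO while the WT change of -0.22 (SE 0.10) did not pass. Usp18 rose by 0.76 and 0.73 by Day 7 in WT and FP-KO, was still 0.45 above Day 0 in WT on Day 14, and fell by 0.73 in FP-KO from Day 7 to Day 14.

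In the IFIT family, whose proteins bind viral RNA that lacks host cap marks, Ifit1 moved most. Its WT levels were 8.93, 9.20, 8.79 and 8.74 on Day 0, 9.73, 9.75, 9.79 and 10.42 on Day 7, and 10.10, 10.13, 10.19, 9.92 and 9.71 on Day 14. FP-KO levels of Ifit1 were 9.26, 8.91, 9.20 and 9.41 on Day 0, 10.15, 10.23, 10.23 and 10.04 on Day 7, and 9.76, 9.37, 9.46 and 9.46 on Day 14. All WT mice of Day 7 and Day 14 lay above all WT Day 0 mice, and in FP-KO the Day 7 mice lay above both other days. Ifit1, which carries 2 separate ISRE matches in the stretch above, rose by 1.01 (SE 0.15) and 1.09 (SE 0.14) in WT on Day 7 and Day 14 and by 0.97 (SE 0.15) in FP-KO on Day 7. Ifit2 rose in FP-KO on Day 7 by 0.40 (SE 0.13, limma adjusted p = 0.0274), a call lost without 5 of the 8 mice left out in turn, and its WT change of 0.23 did not pass. Ifit3, with changes from -0.08 to 0.33 from Day 0, was called in no comparison.

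All 4 OAS family members, which make or relate to enzymes that make the second messenger activating RNase L, rose in WT on both days. Oas2 had WT levels of 7.62, 7.10, 7.52 and 7.38 on Day 0, 8.58, 8.94, 8.44 and 9.04 on Day 7, and 8.71, 9.03, 9.19, 8.49 and 8.41 on Day 14. In FP-KO, Oas2 stood at 7.97, 8.41, 8.02 and 8.0 on Day 0, 8.96, 8.57, 9.12 and 8.86 on Day 7, and 8.56, 8.11, 8.76 and 8.69 on Day 14. The FP-KO Day 0 mice all lay above the WT Day 0 mice. Oas2 rose by 1.35 (SE 0.18) and 1.36 (SE 0.17) in WT and by 0.77 (SE 0.18) in FP-KO on Day 7.

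Oas3 had the WT levels 6.19, 5.92, 4.60 and 4.60 on Day 0, with 2 of the 4 arrays at the floor, then 6.56, 6.99, 6.59 and 7.53 on Day 7 and 7.39, 7.63, 7.27, 6.94 and 7.23 on Day 14. The FP-KO levels were 7.05, 6.82, 6.17 and 6.38 on Day 0, 7.30, 7.03, 6.50 and 6.48 on Day 7, and 7.23, 6.78, 6.33 and 6.18 on Day 14. The 3 FP-KO groups overlapped one another, while both later WT groups lay above WT Day 0. Oas3 rose by 1.59 (SE 0.32) and 1.96 (SE 0.31) in WT, its FP-KO changes were 0.22 and 0.03 (SE 0.32 each), and since WT Day 0 reaches the floor its WT changes depend on where the floor is set.

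Oasl2, another member of the family, had WT levels of 9.58, 9.81, 9.78 and 9.83 on Day 0, 10.20, 10.35, 10.57 and 11.27 on Day 7, and 10.83, 10.72, 10.83, 10.57 and 10.40 on Day 14. In FP-KO, Oasl2 stood at 9.98, 10.32, 10.39 and 10.45 on Day 0, 10.74, 10.70, 10.95 and 10.99 on Day 7, and 10.42, 9.99, 10.41 and 10.27 on Day 14. Day 14 mice of FP-KO were back within the range of their Day 0, while those of WT stayed above theirs. Oasl2 rose by 0.85 (SE 0.17) and 0.92 (SE 0.16) in WT and by 0.56 (SE 0.17) in FP-KO on Day 7, and Oasl1, which limits translation of Irf7, rose by 0.84 and 0.53 in WT and by 0.70 in FP-KO on Day 7.

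Mx1, a dynamin-like GTPase that blocks replication of influenza-type viruses, had WT levels of 6.11, 6.56, 6.51 and 6.52 on Day 0, 7.59, 7.80, 7.72 and 8.33 on Day 7, and 7.71, 7.86, 7.89, 7.38 and 7.25 on Day 14. Its FP-KO levels were 6.67, 7.08, 6.52 and 6.76 on Day 0, 8.10, 8.16, 8.12 and 7.43 on Day 7, and 7.51, 5.93, 6.44 and 7.27 on Day 14. The FP-KO Day 14 mice spread over both sides of their Day 0 range, with No. 2 the lowest of all 25. Mx1 rose by 1.43 (SE 0.26) and 1.19 (SE 0.25) in WT and by 1.20 (SE 0.26) in FP-KO on Day 7, then fell by 1.16 (SE 0.26) in FP-KO by Day 14.

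All 4 nucleic acid sensors among the members rose in WT on both days. Zbp1, which senses left-handed nucleic acid and can start necroptosis, had WT levels of 6.43, 7.60, 7.80 and 7.59 on Day 0, 8.95, 9.49, 9.18 and 9.79 on Day 7, and 8.45, 8.41, 8.60, 8.49 and 8.78 on Day 14. In FP-KO, Zbp1 stood at 7.99, 8.41, 7.85 and 8.0 on Day 0, 9.72, 9.73, 9.33 and 9.30 on Day 7, and 8.20, 7.17, 8.03 and 8.58 on Day 14. Day 7 mice were the highest in both genotypes without overlap, and FP-KO Day 0 mice lay above WT Day 0 mice. Zbp1 rose by 2.00 (SE 0.26) and 1.19 (SE 0.25) in WT and by 1.45 (SE 0.26) in FP-KO on Day 7, then fell by 1.52 (SE 0.26) in FP-KO by Day 14.

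Dhx58, a regulator of the RNA helicase sensors, had WT levels of 7.05, 6.76, 6.88 and 7.06 on Day 0, 7.62, 7.86, 7.58 and 8.08 on Day 7, and 7.75, 7.98, 7.95, 7.50 and 7.54 on Day 14. FP-KO levels of Dhx58 were 7.51, 7.29, 7.15 and 6.79 on Day 0, 7.43, 7.49, 7.61 and 7.82 on Day 7, and 7.43, 6.29, 7.15 and 7.18 on Day 14. The FP-KO groups overlapped on Day 0 and Day 7, which the WT groups did not. Dhx58 rose by 0.85 (SE 0.19) and 0.81 (SE 0.18) in WT, and its FP-KO Day 7 change was 0.40 (SE 0.19, limma adjusted p = 0.132). Ifih1, the helicase MDA5 that senses long double-stranded RNA, rose by 0.36 and 0.25 in WT, and Eif2ak2, the kinase PKR that halts translation, rose by 0.69 and 0.76 in WT and by 0.57 in FP-KO on Day 7.

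The GBP and IRG GTPases, which attack vacuoles of intracellular microbes, divided. Iigp1 had WT levels of 10.35, 10.59, 11.19 and 11.01 on Day 0, 11.86, 11.69, 11.76 and 12.34 on Day 7, and 11.56, 11.57, 11.73, 11.73 and 11.47 on Day 14. In FP-KO, Iigp1 stood at 11.002, 11.43, 11.31 and 11.17 on Day 0, 11.85, 11.54, 11.78 and 11.62 on Day 7, and 10.99, 10.62, 10.98 and 11.08 on Day 14. On Day 14 every FP-KO mouse lay below every WT mouse. Iigp1 rose by 1.13 (SE 0.16) and 0.83 (SE 0.15) in WT and by 0.47 (SE 0.16, limma adjusted p = 0.0361) in FP-KO on Day 7, and that last call was lost without any of FP-KO Day 0 No. 1, No. 3 or No. 4 or FP-KO Day 7 No. 1 or No. 3.

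Irgm1, a regulator of the other IRG proteins whose promoter stretch holds the overlapping ISRE matches, had WT levels of 9.41, 9.75, 9.79 and 9.79 on Day 0, 10.24, 10.02, 10.26 and 10.82 on Day 7, and 10.16, 10.16, 10.22, 10.15 and 10.15 on Day 14. Its FP-KO levels were 9.62, 10.05, 9.96 and 9.92 on Day 0, 10.48, 10.52, 10.38 and 10.40 on Day 7, and 9.86, 9.63, 9.68 and 9.96 on Day 14. The 5 WT Day 14 mice lay close together and all above the FP-KO Day 14 mice. Irgm1 rose by 0.65 (SE 0.13) and 0.48 (SE 0.12) in WT and by 0.56 (SE 0.13) in FP-KO on Day 7, then fell by 0.66 (SE 0.13) in FP-KO by Day 14.

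Gbp2 and Igtp did not rise. Gbp2 had WT levels of 10.72, 11.12, 11.04 and 11.21 on Day 0, 10.70, 10.74, 10.94 and 11.31 on Day 7, and 10.64, 10.54, 10.65, 10.69 and 10.86 on Day 14. Its FP-KO levels were 11.02, 11.39, 11.50 and 11.36 on Day 0, 11.06, 11.15, 11.15 and 11.14 on Day 7, and 10.77, 10.71, 10.82 and 10.91 on Day 14. In FP-KO all Day 14 mice were below all Day 0 mice. By Day 14 Gbp2 fell by 0.34 in WT (SE 0.12, limma adjusted p = 0.0245) and by 0.51 in FP-KO (SE 0.12, limma adjusted p = 0.025). Both calls were lost with common-median scaling (adjusted p = 0.0619 and 0.0643), the WT call without WT Day 0 No. 2 or No. 4 or WT Day 14 No. 2, and the FP-KO call without FP-KO Day 0 No. 2, No. 3 or No. 4 or FP-KO Day 14 No. 1.

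Igtp, an IRG protein also known as Irgm3, had WT levels of 10.17, 10.26, 10.10 and 10.29 on Day 0, 10.25, 10.22, 10.32 and 10.89 on Day 7, and 10.10, 10.25, 10.43, 10.05 and 10.21 on Day 14. In FP-KO, Igtp stood at 10.61, 10.90, 10.42 and 10.38 on Day 0, 10.53, 10.58, 10.36 and 10.44 on Day 7, and 10.72, 10.38, 9.91 and 10.08 on Day 14. All 6 time changes lay between -0.30 and 0.21 and none passed in limma, although every FP-KO Day 0 mouse stood above every WT Day 0 mouse. Gbp3 changed by -0.17 to 0.23 from Day 0 and was called in no comparison.

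The CXCR3 chemokines Cxcl9 and Cxcl10, which attract activated T cells and natural killer cells, had the largest Day 7 rises of all members in both genotypes. Cxcl9 had WT levels of 4.60, 6.21, 4.73 and 4.60 on Day 0, with 2 arrays at the floor, then 7.89, 8.69, 8.35 and 9.62 on Day 7 and 7.03, 7.24, 7.88, 7.21 and 7.18 on Day 14. Its FP-KO levels were 5.05, 7.29, 5.02 and 4.82 on Day 0, 8.88, 9.24, 7.84 and 8.48 on Day 7, and 6.83, 5.85, 7.15 and 6.36 on Day 14. Mouse No. 2 stood apart upward on Day 0 in both genotypes, and the Day 7 mice lay above both other days in both. Cxcl9 rose by 3.60 (SE 0.47) on Day 7 and 2.27 (SE 0.45) on Day 14 in WT, and by 3.07 (SE 0.47) on Day 7 in FP-KO, while its FP-KO Day 14 change of 1.00 (SE 0.47, limma adjusted p = 0.246) did not pass.

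Cxcl10 had WT levels of 6.35, 7.26, 6.80 and 6.59 on Day 0, 9.83, 9.81, 9.45 and 10.47 on Day 7, and 8.60, 8.82, 8.75, 8.85 and 8.76 on Day 14. In FP-KO, Cxcl10 stood at 6.60, 7.54, 6.90 and 7.50 on Day 0, 10.04, 10.10, 10.09 and 9.85 on Day 7, and 7.94, 6.56, 7.81 and 7.88 on Day 14. The WT groups did not overlap on any pair of days, and on Day 14 the lowest WT mouse was above the highest FP-KO mouse. Cxcl10 rose by 3.14 (SE 0.26) by Day 7 in WT and fell by 1.13 (SE 0.25, limma adjusted p = 0.0121) from Day 7 to Day 14, the only member called in that comparison. In FP-KO it rose by 2.89 (SE 0.26) and then fell by 2.47 (SE 0.26), which left a Day 14 change of 0.41 (SE 0.26) that did not pass.

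**Figure D2:**
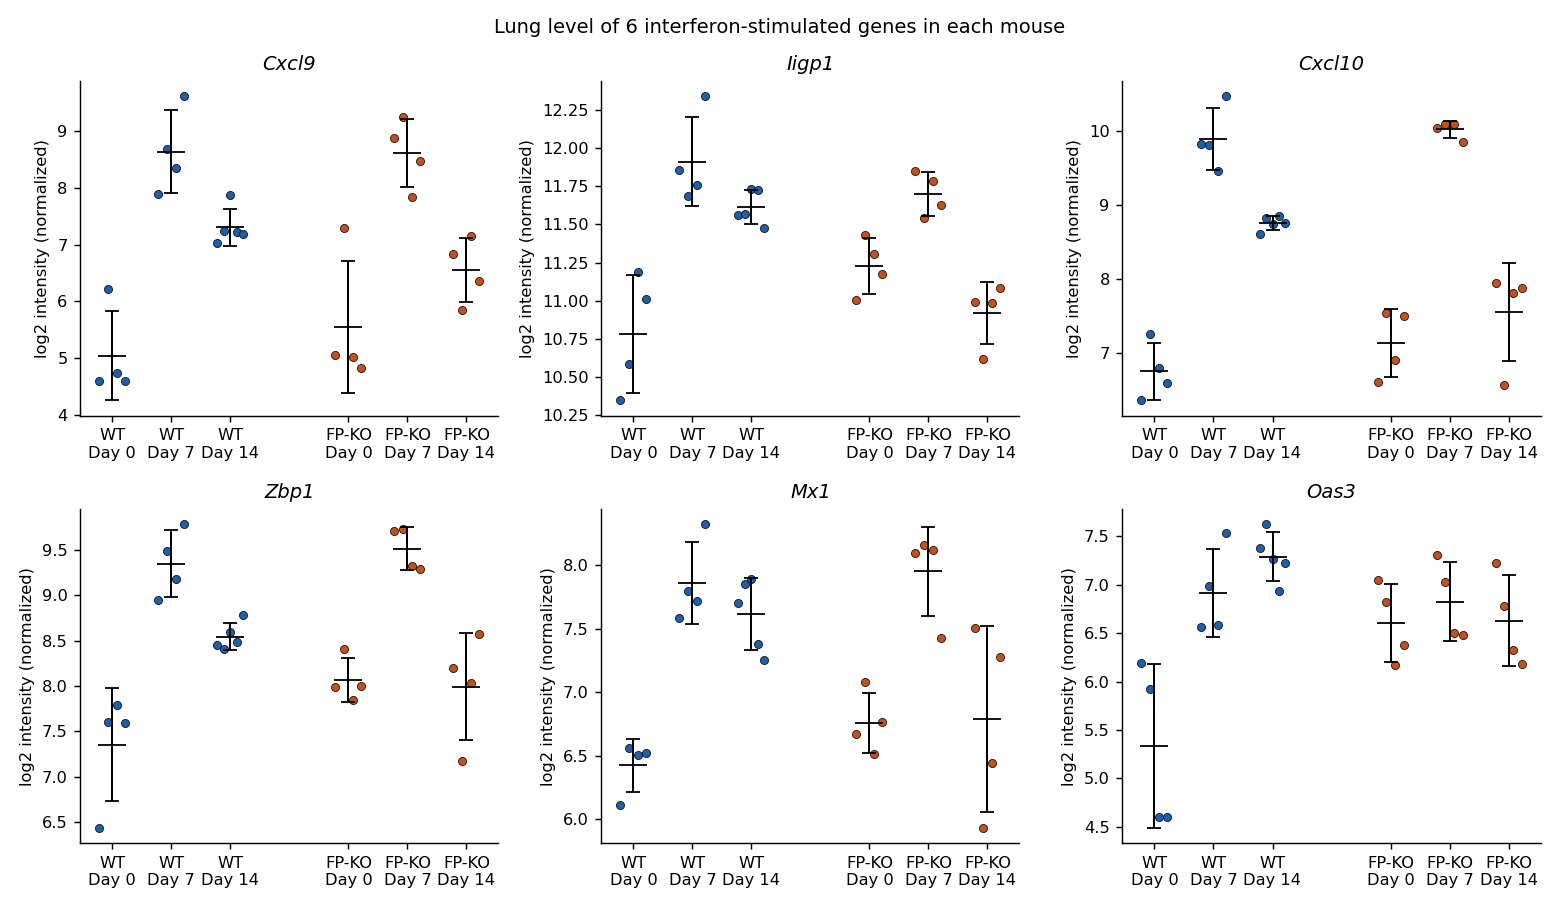
Normalized log2 intensity of 6 members in each mouse (1 point per mouse), by genotype and day, with the group mean and 1 SD as bars. For Cxcl10 all 5 WT Day 14 mice (8.60 to 8.85) lie above all 4 FP-KO Day 14 mice (6.56 to 7.94), and for Oas3 the WT Day 0 group reaches the floor at 4.60.

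The remaining members changed less. Tap1, which carries peptides to MHC class I, rose by 0.57 and 0.51 in WT and by 0.40 in FP-KO on Day 7. Bst2, which tethers budding viruses, rose on Day 7 by 0.63 in WT and 0.47 in FP-KO, and Rtp4, an inducible chaperone, by 0.58 and 0.47. These FP-KO calls were kept with 2 (Tap1), 3 (Bst2) and 7 (Rtp4) of the 8 mice left out in turn. That of Tap1 was also lost with no filter on low genes and with the deposited values not quantile normalized. That of Rtp4 was lost with the mean of all its probe sets. Trim30a, a restrainer of inflammatory signalling, rose by 0.44 in WT on Day 7. Parp9 rose by 0.35 and 0.30 in WT, whereas its family member Parp14, at 0.26 and 0.20, did not pass. The Parp9 calls were lost with common-median scaling, and the Day 14 call was kept with 4 of the 9 mice left out in turn. Ifi35 was 0.28 lower on Day 14 in WT (change -0.28, SE 0.10, limma adjusted p = 0.0336), a call lost without 6 of the 9 mice left out in turn, with common-median scaling (adjusted p = 0.194) and with the mean of all its probe sets (adjusted p = 0.718). Xaf1, a promoter of cell death, passed only in the fall from Day 7 to Day 14 in FP-KO, by 0.57 (SE 0.14). Cmpk2, Gbp3, Ifit3, Igtp, Parp14 and Rsad2 (viperin) passed in none of the 12 comparisons with the probe set used. In a limma fit of all probe sets, the other 2 probe sets of Rsad2 rose in WT by Day 14, by 0.78 (adjusted p = 0.00449) and 0.82 (adjusted p = 0.0213), where the one used changed by 0.23, and the first of these also rose by Day 7, by 0.57 (adjusted p = 0.0462).

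The 5 gamma-interferon members were set beside the 30 type I members, as the list implies. On Day 7 in WT, 22 of 30 type I members rose (median 0.64) and 2 of 5 gamma-interferon members rose, Cxcl9 and Iigp1 (median 0.21). On Day 7 in FP-KO, 17 of 30 type I members rose (median 0.40), and of the gamma-interferon members 2 rose and 1 fell (median -0.10). This split rests on the class given to genes that both interferons induce: with Gbp3, Irgm1, Tap1 and Cxcl10 counted as gamma-interferon members, 5 of 9 rose in WT on Day 7 with a median of 0.57, and in FP-KO the median was 0.40. The mean over a class told less, since Cxcl9 carries much of the gamma-interferon mean: taken against the WT Day 0 mean of each gene, it was 0.94 ± 0.336 in WT and 0.94 ± 0.0921 in FP-KO on Day 7 (mean ± SD, n = 4 each), beside 0.77 ± 0.271 and 0.89 ± 0.0625 for the type I members. The difference between the classes was not tested.

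**Figure D3:**
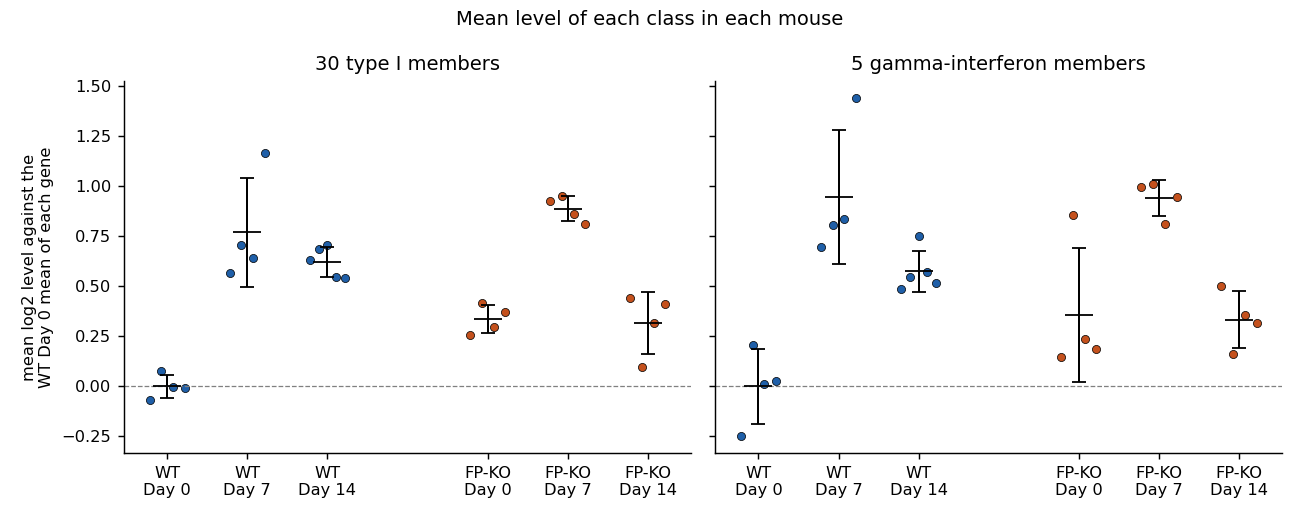
Mean log2 level of the 30 type I members (left) and the 5 gamma-interferon members (right) in each mouse, relative to the WT Day 0 mean of each gene, with the group mean and 1 SD. The 4 FP-KO Day 0 mice lie at 0.26 to 0.42 for the type I members, above the WT Day 0 mice at -0.07 to 0.08, and WT Day 7 No. 4 is the highest of its group in both panels.

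Where a called member had other probe sets, these mostly had the same sign: on Day 7 in WT all 9 did and 7 were called, on Day 14 against Day 0 in WT 9 of 11 did and 8 were called, and on Day 14 in FP-KO against WT all 4 did and 1 was called. The exceptions on Day 14 in WT were the other probe sets of Ifi35, at 0.06 and 0.10 against -0.28 for the one used, whose type may detect several targets. Members moved together within a mouse. WT Day 7 No. 4 was the highest of its group for 33 of 35 members, and its type I mean was 1.17, against 0.57 to 0.70 in the other 3 mice. Without it the type I median on Day 7 in WT was 0.48 in place of 0.64, and 21 members rose. FP-KO Day 14 No. 2, the array with the high 18S signal, was the lowest of its group for 23 of 35 members. These shared shifts mean that the 35 members are not independent observations of a condition.

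On Day 0 all 35 members were higher in FP-KO than in WT, by 0.02 to 1.27. None was called in limma, where 0.00829% of all genes were called higher and the same share lower, and 15 members had an unadjusted p under 0.05, as did 403 of all 12062 genes. The type I median of the difference was 0.27 and the gamma-interferon median 0.37, beside -0.01 over all genes. The largest differences were those of Oas3 (1.27, SE 0.32, limma adjusted p = 0.706), Zbp1 (0.71, SE 0.26, limma adjusted p = 1) and Oas2 (0.70, SE 0.18, limma adjusted p = 0.791). The mice did not overlap for 6 members, Herc6, Irf7, Oasl2, Oas2, Igtp and Zbp1, where 0.962% of all genes lay higher in this way, and for 0 members were all FP-KO mice lower (1.15% of all genes). With common-median scaling 33 of 35 were higher and 9 had an unadjusted limma p under 0.05. With the mouse number as a block within Day 0 again 0 were called. With single mice left out, 34 or 35 of the 35 members were higher. The number with an unadjusted limma p under 0.05 then ran from 7, without WT Day 0 No. 1, to 16, without FP-KO Day 0 No. 1. On the same day the summed intensity of neutrophil markers was 7620 to 26000 in FP-KO and 4830 to 8460 in WT, and that of macrophage markers 15300 to 17700 and 13400 to 15900. Of the tested markers, 0 of 5 for neutrophils and 0 of 10 for macrophages were called between genotypes on Day 0. The part of these cells in the Day 0 difference of the members was not tested.

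On Day 7 the genotypes could not be separated. The type I median of the FP-KO minus WT difference was 0.12 and the gamma-interferon median -0.03. No member was called in limma (0.00829% of all genes were called in each direction), 2 had an unadjusted p under 0.05, and the mice overlapped for all 35 members, where 2.68% of all genes lay higher and 2.73% lower without overlap. The differences ran from -0.21 for Iigp1 (SE 0.16) to 0.29 for Rtp4 (SE 0.13). In all, 29 of 35 members had higher means in FP-KO, 27 of the 30 type I members among them. Without WT Day 7 No. 4, the high mouse, the type I median of the difference was 0.25 and the gamma-interferon median 0.22. The change from Day 0 to Day 7 did not differ between genotypes for any member in limma, where 0% of all genes were called, and 3 members had an unadjusted p under 0.05.

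By Day 14, members were lower in FP-KO than in WT. In limma, 7 of 35 passed as lower and 0 as higher, where 5.64% of all genes were lower and 4.89% higher. All FP-KO mice were below all WT mice for 5 members, Cxcl10, Iigp1, Irgm1, Dhx58 and Herc6 (5.71% of all genes), and above for 0 (5.26%). The 7 that passed were the chemokine Cxcl10 (-1.21, SE 0.25, limma adjusted p = 0.0045), the GTPases Iigp1 (-0.69, SE 0.15, limma adjusted p = 0.00619), Mx1 (-0.83, SE 0.25, limma adjusted p = 0.0325) and Irgm1 (-0.39, SE 0.12, limma adjusted p = 0.0442), the sensor Dhx58 (-0.73, SE 0.18, limma adjusted p = 0.013), Ifit1 (-0.50, SE 0.14, limma adjusted p = 0.0245) and the ligase Herc6 (-0.36, SE 0.10, limma adjusted p = 0.0277). In all, 30 of 35 members had lower means in FP-KO. The type I median was -0.23 and the gamma-interferon median 0.06. Irf1, Gbp2 and Igtp, at 0.06, 0.12 and 0.07, were among the 5 members with higher means, with Gbp3 and Ifi35, and with common-median scaling 34 of 35 members were lower. That scaling moved the calls over all genes from 590 up and 680 down to 217 and 550.

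The Day 14 difference rested in part on single mice and on the set of arrays. Without FP-KO Day 14 No. 2, the array standing among the Day 0 mice, 2 members passed, Cxcl10 and Iigp1. The count was 4 without FP-KO Day 14 No. 3, WT Day 14 No. 1 or WT Day 14 No. 2, 3 without WT Day 14 No. 3, and 7 or 8 without any other mouse. The calls of Cxcl10 and Iigp1 were kept with any of the 9 mice left out. That of Dhx58 was kept with 8 of 9, Herc6 with 6, Ifit1 with 5, Mx1 with 4 and Irgm1 with 2. Irgm1 was kept in 9 of 13 other settings, and Herc6 was lost with the mean of all its probe sets (limma adjusted p = 0.12). Within set A (3 WT, 2 FP-KO), 32 of 35 members were lower in FP-KO with a median of -0.28, all 30 type I members among them, and 6 passed. Within set B (2 WT, 2 FP-KO), 27 of 35 were lower with a median of -0.13, 24 of the 30 type I members among them, and 0 passed. Cxcl10 was lower by 1.47 within set A and by 0.96 within set B (differences of -1.47 and -0.96), and Iigp1 differed by -0.82 and -0.57, without overlap of mice in either set for both genes. Oas2 differed in direction, at -0.64 in set A and 0.28 in set B.

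**Figure D4:**
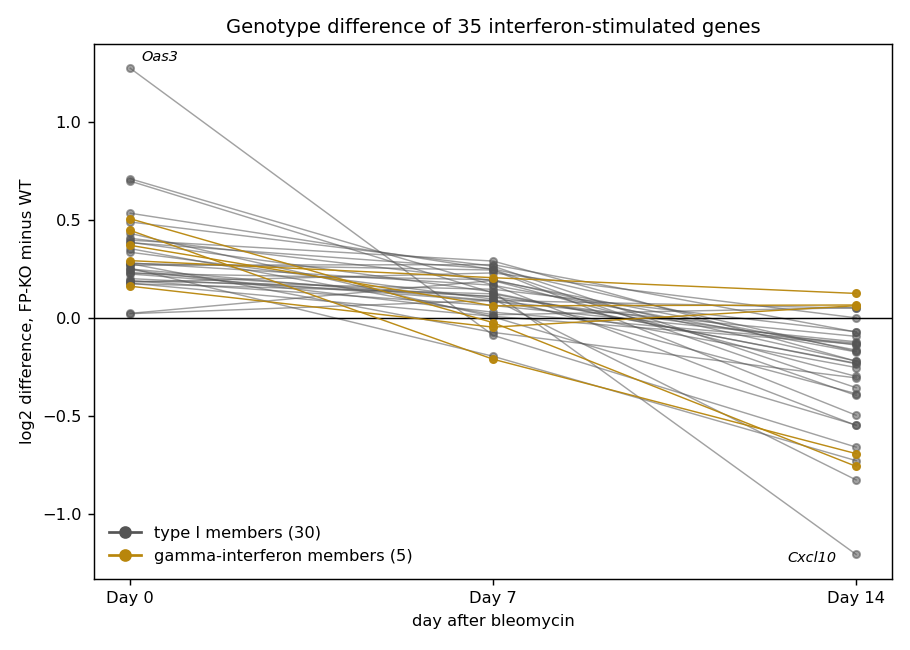
Difference of group means, FP-KO minus WT (log2), for the 35 tested members on Day 0, Day 7 and Day 14, with 1 line per gene; grey lines are type I members and gold lines gamma-interferon members. All lines start above 0 on Day 0 and 30 of 35 end below it on Day 14, from 0.12 for Gbp2 down to -1.21 for Cxcl10.

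The design also allows the change over time to be compared between genotypes. The signed change from Day 0 to Day 14 was lower in FP-KO than in WT for 34 of 35 members. These include Gbp2, below 0 in both genotypes (-0.51 against -0.34), and Rtp4, below 0 in FP-KO alone (-0.36 against 0.26). In limma, 8 members passed and all 8 had the lower change in FP-KO, where 1.84% of all genes passed in that direction and 1.28% in the other. Oas3 differed by -1.94 (SE 0.45, limma adjusted p = 0.0251), Cxcl10 by -1.59 (SE 0.36, limma adjusted p = 0.0231), Iigp1 by -1.14 (SE 0.22, limma adjusted p = 0.0152) and Dhx58 by -0.98 (SE 0.26, limma adjusted p = 0.0435). Oas2 and Oasl2 each differed by -0.93 (limma adjusted p = 0.0447 and 0.0327), Herc6 by -0.85 (SE 0.15, limma adjusted p = 0.00982) and Ifit1 by -0.78 (SE 0.20, limma adjusted p = 0.0381). The type I median of this difference was -0.53 and the gamma-interferon median -0.30, beside 0.01 over all genes. Part of each value is the higher Day 0 level in FP-KO: Oas3 was 1.27 higher on Day 0 and 0.66 lower on Day 14 (difference -0.66, SE 0.31), and Cxcl10 was 0.39 higher on Day 0 and lower on Day 14 (difference -1.21, SE 0.25).

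The calls of Herc6 and Iigp1 were kept with any of the 17 mice of these groups left out, and in 12 of 13 other settings. Those of Cxcl10 and Oas3 were kept with 15 of 17 left out (both lost without FP-KO Day 0 No. 2, Cxcl10 also without WT Day 0 No. 1, Oas3 also without FP-KO Day 0 No. 1), and that of Oas3 was lost with the floor at the 40th percentile, where its difference was -0.996 (adjusted p = 0.0764) in place of -1.94, and with the set A arrays alone at Day 14, where it was -1.70. Oasl2 passed with 10 of 17 left out, Dhx58 with 6, and Ifit1 and Oas2 with 5 each. In a limma fit of all probe sets, the other probe sets of Herc6 differed by -0.63, -0.53 and -0.51. None of these passed (adjusted p = 0.127, 0.125 and 0.292), while the other probe set of Iigp1 passed, at -1.28 (adjusted p = 0.0269). The number of members called was 3 without FP-KO Day 0 No. 2 or WT Day 0 No. 1, 4 without FP-KO Day 0 No. 1, FP-KO Day 14 No. 2 or any of WT Day 14 No. 1 to No. 3, and 5 without FP-KO Day 0 No. 4 or WT Day 0 No. 4. With the set A arrays alone at Day 14, 10 members passed, 35 of 35 had the lower change in FP-KO, and 18 had an unadjusted p under 0.05. With the set B arrays alone at Day 14, 0 passed, 34 of 35 had the lower change, and 14 members had an unadjusted p under 0.05. From Day 7 to Day 14, the change differed between genotypes for 0 members in limma (0.00829% of all genes, 1 gene, were lower), while 9 members had an unadjusted p under 0.05 and the type I median was -0.36.

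Genes of the interferon system outside the members followed in part. Over all genes, 17.1% rose and 18% fell in WT on Day 7, and 1.84% passed as lower in the Day 14 difference of change. Among 12 tested sensors and adaptors, 6 rose in WT on Day 7 and 0 fell, among them Ifi204, a DNA sensor of the IFI200 family (1.91, SE 0.25), Sting1, the adaptor of cytosolic DNA sensing (1.19, SE 0.20), and Tlr7, an endosomal receptor of single-stranded RNA (0.79, SE 0.20). In the Day 14 difference of change, 3 of the 12 passed as lower in FP-KO: Ifi204 (-1.73, limma adjusted p = 0.0152), Ddx58, the helicase RIG-I (-0.52, limma adjusted p = 0.0366), and Myd88, the Toll-like receptor adaptor (-0.44, limma adjusted p = 0.0328). Of 26 other tested type I targets, 7 rose and 0 fell on Day 7 in WT, led by Oas1a (1.37, SE 0.16), Lgals3bp, a secreted glycoprotein (1.14, SE 0.17), and Ifi27l2a (0.94, SE 0.16), and Oas1a was lower in the Day 14 difference of change (-1.03, limma adjusted p = 0.0197). On Day 14 in WT, 9 of the 26 were above Day 0 and 5 below it, where 19.1% of all genes rose and 19.5% fell. These 26 had a median change of 0.15 in WT on Day 7, beside 0.64 for the type I members.

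Of 8 other tested gamma-interferon targets, 3 rose on Day 7 in WT (17.1% of all genes): Fcgr1, the high-affinity IgG receptor of macrophages (2.31, SE 0.23), Gbp6 (0.67, SE 0.18) and Cd274, the checkpoint ligand PD-L1 (0.42, SE 0.14). Fcgr1 (-1.36, limma adjusted p = 0.0251) and Cd274 (-0.74, limma adjusted p = 0.0366) were lower in the Day 14 difference of change. Among 16 tested genes of antigen processing, 8 rose in WT on Day 7 (17.1% of all genes), with the MHC class II genes H2-DMa (0.79, SE 0.19), H2-Ab1 (0.74, SE 0.14) and H2-Eb1 (0.56, SE 0.12) in front. In FP-KO 0 of the 16 rose on Day 7 (12.6% of all genes), and H2-Ab1 changed by 0.28 (SE 0.14). The difference in that change between genotypes, -0.46 for H2-Ab1 (SE 0.20), did not pass for any of them. Socs3 was lower in FP-KO on Day 14 (-1.10, SE 0.26, limma adjusted p = 0.00891). Ifna2 was higher in FP-KO on Day 14 by 1.53 (SE 0.48, limma adjusted p = 0.0421). Its Day 14 levels were 6.14, 4.60, 6.10, 5.14 and 5.00 in WT, reaching the floor at 4.60, and 7.13, 7.77, 6.265 and 6.53 in FP-KO. The size of this difference therefore depends on the floor, and close paralogs may share the probes of Ifna2.

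Ifi44l, an interferon-inducible relative of Ifi44 and no member of the list, neighbours Ptgfr in the RefSeq gene order. It was higher in FP-KO on Day 0 by 3.07 (SE 0.11, limma adjusted p = 6.16e-15), on Day 7 by 3.96 (SE 0.11, limma adjusted p = 2.17e-17) and on Day 14 by 2.91 (SE 0.10, limma adjusted p = 6.06e-15), and between Day 0 and Day 7 it rose by 1.03 (SE 0.11) in FP-KO and changed by 0.14 (SE 0.11) in WT. From Day 7 to Day 14 it fell by 1.22 (SE 0.11) in FP-KO, and the difference between the genotypes in that change, -1.04 (SE 0.15, limma adjusted p = 0.0072), was the only call among all genes in that comparison.

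Markers of leukocytes moved over the same days. All 10 macrophage markers rose in WT by Day 7 (17.1% of all genes) and 8 of 10 in FP-KO (12.6%). On Day 14, 7 of 10 macrophage markers were lower in FP-KO than in WT, where 5.64% of all genes were. Their summed intensity was 34200 to 39700 in WT and 14300 to 27300 in FP-KO on Day 14. Of 9 natural killer and cytotoxic cell markers, 6 fell in WT by Day 7 (18% of all genes) and all 9 by Day 14 (19.5%). Their summed intensity in WT was 4620 to 5620 on Day 0, 2710 to 3250 on Day 7 and 1610 to 3080 on Day 14. In FP-KO it was 4660 to 8490, 3760 to 4310 and 2530 to 3460. T cell markers summed to 2510 to 2990 in WT and 3190 to 4130 in FP-KO on Day 7, and plasmacytoid dendritic cell markers to 1420 to 2240 and 1940 to 2400. Of the tested markers, 0 of 10 T cell and 0 of 5 plasmacytoid dendritic cell markers were called between genotypes on Day 7. Over all genes 0.00829% were called in each direction. A sum is weighted toward the probe sets of highest intensity. None of the markers with a probe set was at the floor in all arrays. The part of these cells in the levels of the members was not tested.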

How the data were processed

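RNA from lungs of 25 mice was measured on Affymetrix expression arrays. The deposited values are the authors' linear intensity per probe set, each array scaled to a trimmed mean of 500; the software and background correction are not given in the sources used here. Of 45101 probe sets, 34945 had 1 gene symbol, 932 had several, 9160 had none and 64 were controls. Intensities were floored at 24.3 (their 20th percentile), put on the log2 scale and quantile normalized, because array medians ranged over more than 0.3. Each of 18193 genes was represented by its probe set of highest mean, and 12062 genes that exceeded the median of the array in 4 or more arrays were tested.

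Group means of all 6 groups were fitted with limma 3.58.1 in R 4.3.3, with Benjamini-Hochberg adjustment over all genes tested, in 12 comparisons. The script was tested on simulated data. Values of every mouse were given for the 5 gamma-interferon members, the 8 type I members with the largest called Day 7 change in WT, and every member called in a genotype comparison or interaction. Pathway genes named were up to 3 per list with the largest called Day 7 change in WT, any called in an interaction, and Ifng and Ifnb1. A further item under this rule is not reported here. The members and lists were chosen with earlier results of these data known. Alternatives covered scaling, floor, filter, probe set choice, test settings, the mouse number as a block, the Day 14 sets and each mouse left out in turn. The main fit used no pairs of mice, and the mouse number entered only as a block among the alternatives. Deviations of same-numbered FP-KO and WT mice had correlations of 0.119 to 0.345 (Day 0), 0.141 to 0.221 (Day 7) and -0.308 to 0.437 (Day 14). The own number gave the best match for 3 of 4 (Day 0), 2 of 4 (Day 7) and 1 of 4 (Day 14). Between groups of different days such correlations ran from -0.235 to 0.429, so pairing by number was not established. No arrays held identical values.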

Additional observations from a re-analysis of the deposited data

Results flagged for a closer look

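In 15 of 108 groups of mice examined for the members described in full and the class means, the highest or lowest mouse stood apart from the others by Dixon's criterion; chance gives about 5 percent. WT Day 7 No. 4 stood apart upward in Igtp, at 10.89 against 10.22 to 10.32, and in Ifit1, at 10.42 against 9.73 to 9.79. FP-KO Day 0 No. 2 stood apart upward in Cxcl9, at 7.29 against 4.82 to 5.05, in Oas2, at 8.41 against 7.97 to 8.02, and in the gamma-interferon class mean, at 0.85 against 0.14 to 0.24. WT Day 0 No. 2 was likewise high in Cxcl9, at 6.21 against 4.60 to 4.73. WT Day 0 No. 1 stood apart downward in Zbp1, at 6.43 against 7.59 to 7.80, in Mx1, at 6.11 against 6.51 to 6.56, and in Irgm1, at 9.41 against 9.75 to 9.79. FP-KO Day 14 No. 2 stood apart downward in Cxcl10, at 6.56 against 7.81 to 7.94, and in Herc6, at 8.24 against 8.62 to 8.64. WT Day 14 No. 3 was high in Cxcl9, at 7.88 against 7.03 to 7.24, and in Irgm1, at 10.22 against 10.15 to 10.16. Herc6 was low in FP-KO Day 0 No. 1, at 8.45 against 8.70 to 8.74, and Mx1 in FP-KO Day 7 No. 4, at 7.43 against 8.10 to 8.16.

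For 8 members the change from Day 0 to Day 14 differed between the genotypes in limma's interaction test: Oas3 (-1.94), Cxcl10 (-1.59), Iigp1 (-1.14), Dhx58 (-0.98), Oasl2 (-0.93), Oas2 (-0.93), Herc6 (-0.85) and Ifit1 (-0.78).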

How the results depend on the processing

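The 8 members with a lower Day 14 change in FP-KO became 5 with a common array median, 4 with no filter on low genes and 0 with set B alone at Day 14. The 7 members lower in FP-KO on Day 14 became 3 with only the groups compared in the fit and 0 with set B. The 1 member that fell from Day 7 to Day 14 in WT became 2 with the floor at the 40th percentile, with the mean of all probe sets, with trend and robust moderation, with the mouse number as a block or with the Day 14 set as a term, 3 with only the groups compared or with set A, 7 with array weights and 0 with set B. The block changed no other count by over 1.5 times. With set B the 21 members above Day 0 in WT on Day 14 became 13 and the 18 that fell in FP-KO became 8. With array weights 1 member was above Day 0 in FP-KO on Day 14. With set A the gamma-interferon median change on Day 14 in FP-KO was -0.022 in place of -0.30. With set B the type I median of the Day 14 difference of change was -0.38 from Day 0 and -0.22 from Day 7. With Gbp3, Irgm1, Tap1 and Cxcl10 counted as gamma-interferon members, the gamma-interferon median change was 0.57 on Day 7 and 0.48 on Day 14 in WT and 0.40 on Day 7 in FP-KO. With single mice left out, the counts ran from 2 to 8 for members lower in FP-KO on Day 14, 3 to 11 for the difference of change, 11 to 19 for the FP-KO rise by Day 7, and 1 to 2 for the WT fall. The medians ran from 0.48 to 0.71 (type I, WT Day 7), -0.064 to 0.22 (gamma-interferon, FP-KO against WT Day 7) and -0.53 to -0.31 (type I, change from Day 7 to Day 14, FP-KO against WT). The cause was not tested. Of 1199 values for single members under other settings, 1107 kept their side of the threshold, 92 lost the call and 0 reversed; with single mice left out, 789 of 927 kept it, 138 lost it and 0 reversed. Signal near the floor limits Cxcl9 and Oas3 on Day 0 in WT, where 2 of 4 arrays each give only a bound.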
